A study of Mus musculus with 12 samples.

Results

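SNARE genes were followed through starvation and BRUCE knockdown in mouse embryonic fibroblasts (MEFs), connective tissue cells grown in culture. They were taken by symbol from a list of 34 genes, all of which stood among the 24062 gene symbols of the RNA-Seq count table. The 12 libraries came from 4 conditions with 3 replicates each: MEFs expressing shRenilla or shBruce#1, grown in full medium (FM) or starved (Starv) for 2 h without serum and amino acids. shRenilla is a short hairpin RNA against Renilla luciferase, a gene mice lack, and serves as the control. shBruce#1 targets Birc6, the gene of BRUCE, a very large inhibitor-of-apoptosis protein that is also a ubiquitin ligase. Each line carried 1 shRNA, so a line and its shRNA cannot be told apart, and the labels do not say whether replicates were separate cultures. A p-value from the fit of all 12 libraries then measures their spread within conditions, pooled over the 4 conditions, which may be technical.

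SNARE proteins drive membrane fusion. A vesicle carries an R-SNARE (a VAMP, YKT6 or SEC22B), the target membrane carries Qa-, Qb- and Qc-SNAREs (syntaxins and their partners, or a SNAP protein that provides both Qb and Qc), and the bundle they form pulls the membranes together. In autophagy, the Qa-SNARE STX17 is recruited to the closed autophagosome and joins SNAP29 and the lysosomal VAMP8, while YKT6 on the autophagosome can pair with SNAP29 and lysosomal STX7. The study asks how BRUCE acts on autophagosome–lysosome fusion, and the RNA-Seq comparison gives the mRNA levels of the genes that encode this machinery.

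The guide strand of shBruce#1 is shown because it is the designed difference between the lines, with its seed (bases 2 to 8) in capitals.
shBruce#1 guide: tTTTAAACcatctttgagctgt
Its full complement of 22 bases occurred in 7 of 141767 transcripts of GENCODE M21, all of them Birc6, and in 0 of the 204 transcripts of the 33 SNARE genes found in that annotation. Matches to the seed alone were not searched.

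Birc6 itself had normalized counts (counts scaled to a common library size) of 4682, 3273 and 5061 in shRenilla FM and of 1207, 1265 and 1390 in shBruce FM. In Starv it had 4759, 4712 and 2787 in shRenilla and 1175, 703 and 1226 in shBruce. The libraries of the lines did not overlap in either medium. In bulk RNA, fewer cells that express a gene and less of its RNA per cell cannot be told apart. The log2 fold change was -1.75 ± 0.25 (SE) in FM (edgeR adjusted p = 0.0627) and -1.98 ± 0.25 in Starv (edgeR adjusted p = 0.0186).

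Library totals ranged from 7717265 counts in shBruce Starv replicate 1 to 18510540, and SNARE genes took 0.141 to 0.174% of them. The replicates of shBruce Starv differed more from each other than those of the other conditions. Their chi-square per degree of freedom was 35.3 between replicates 1 and 2, 37.5 between 2 and 3 and 67.9 between 1 and 3, where other conditions gave 1.96 to 22.4. Levels also leaned with transcript length to a different degree in each library. The slope of log2 level against log2 length over all genes tested was 0.21, 0.20 and 0.03 in shRenilla Starv and -0.17, -0.23 and 0.04 in shBruce Starv, so that replicates 1 and 2 of the lines lay far apart and replicate 3 did not. Of the fibroblast markers, 7 of 8 had at least 10 counts in every library (summed 8419 to 11830 CPM, counts scaled to the library total), and Thy1 had at most 3 counts. The summed markers of other cell types reached at most 3.63 CPM for epithelium, 4.54 for endothelium, 5.31 for muscle and 12.8 for macrophages. Neuronal markers summed to 61.1 to 110.2 CPM, carried by Dlg4, Map2 and Tubb3, while Rbfox3 had at most 3 counts.

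Of the 34 SNARE genes, 32 passed the filter on low counts. Vamp7, the R-SNARE of late endosomes, was listed at 0 in every library and its symbol had no match in GENCODE M21. Snap25, the Qbc-SNARE of neuronal exocytosis, had 3 counts in shBruce Starv replicate 1 and 0 in the others, and a count of 0 allows up to 3 counts in a library.

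On the RPKM scale, which divides counts by transcript length and library total, the most abundant SNARE mRNA was Ykt6 with a mean level of 59.4 over the 4 conditions. It was followed by Stx4a (50.1) and Vamp3 (46.0), placed at the plasma membrane, Stx5a of the Golgi (46.4) and Vti1b of late endosomes (40.3). The lowest levels per length were those of Vamp1 (1.42), Vamp5 (2.20), Stx11 (3.55) and Stx1a (3.69), all placed at the plasma membrane. Among the SNAREs of autophagosome–lysosome fusion, levels per length ran from Ykt6 over Vamp8 (27.5), Stx7 (17.5) and Snap29 (12.7) to Stx17 (4.19). Vamp2 varied least between replicates (SD of 0.04 within conditions on the log2 scale) and Bet1l most (0.38), the latter through shBruce Starv replicate 1, which had a normalized count of 732.7 where the other 2 replicates had 332.9 and 315.8.

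**Figure D1:**
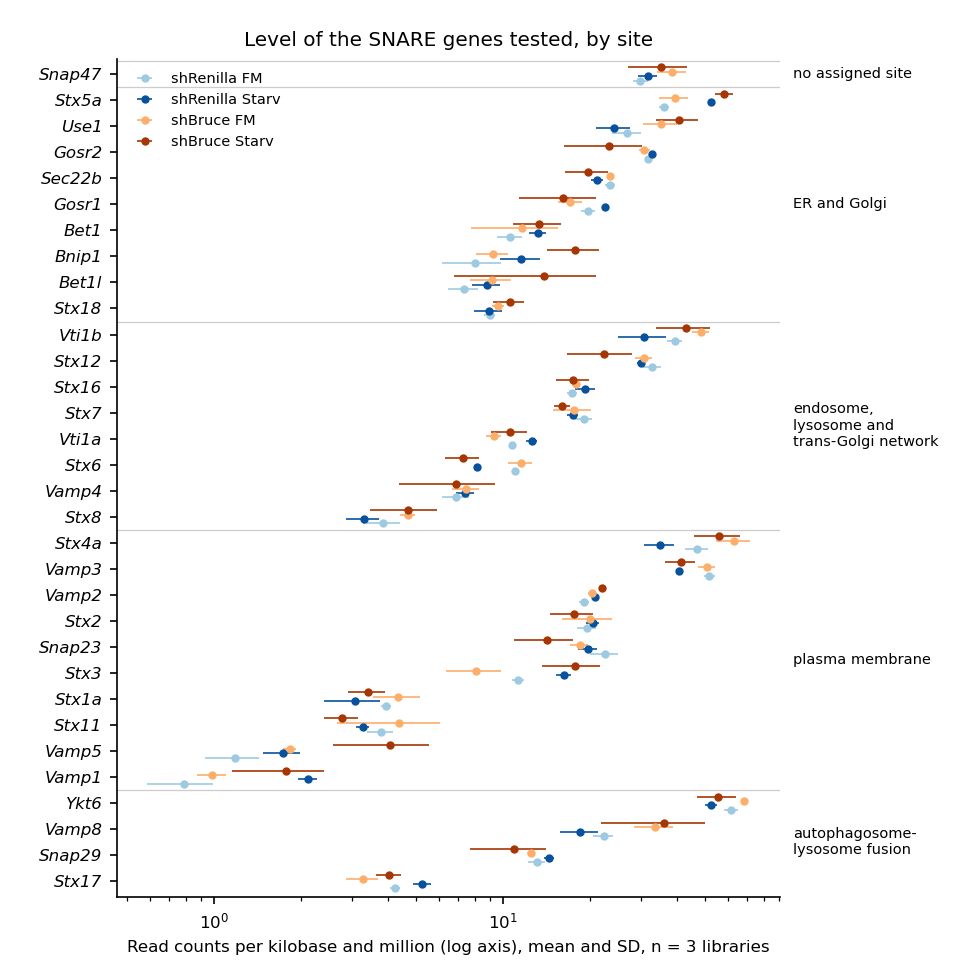
Level of the 32 SNARE genes tested, in RPKM on a log axis, grouped by the site at which the proteins act. Points are means and bars SDs of 3 libraries in each of the 4 conditions, and the levels run from Vamp1 (mean 1.42) to Ykt6 (mean 59.4).

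Among the SNAREs of autophagosome–lysosome fusion, Vamp8 was called between the starved lines, and no other call was made in the 5 comparisons. Stx17, the autophagosomal Qa-SNARE (chr4:48124915-48186507, plus strand, GRCm38), had normalized counts of 353.4, 343.3 and 370.1 in shRenilla FM and 427.7, 478.6 and 418.9 in shRenilla Starv. In shBruce MEFs it had 257.0, 254.4 and 315.4 in FM and 355.3, 299.8 and 363.2 in Starv. Its libraries did not overlap between the lines in either medium, shBruce being the lower, while the media did not overlap in shRenilla and overlapped in shBruce. The log2 fold change of Starv against FM was 0.31 ± 0.13 (SE) in shRenilla (edgeR adjusted p = 0.12) and 0.30 ± 0.13 in shBruce (edgeR adjusted p = 0.125). That of shBruce against shRenilla was -0.37 ± 0.13 in FM (edgeR adjusted p = 0.303) and -0.38 ± 0.13 in Starv (edgeR adjusted p = 0.0516, exact permutation p = 0.1, the smallest that 3 libraries against 3 can give). With trends against length and GC content taken out of each library, the difference between the starved lines was 0.04 for Stx17, which has the longest transcript of the SNARE genes tested (5770 bases).

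Snap29, the Qbc-SNARE that bridges the autophagosomal complex, had 682.4, 608.3 and 685.5 normalized counts in shRenilla FM and 723.0, 758.9 and 702.6 in shRenilla Starv. In shBruce it had 614.8, 620.8 and 645.6 in FM and 367.4, 601.8 and 675.3 in Starv, where replicate 1 was the low library. Every shBruce Starv library was below every shRenilla Starv library, with a log2 difference of -0.40 ± 0.17 (SE, edgeR adjusted p = 0.103), and of -0.20 without shBruce Starv replicate 1. Snap29 overlaps an exon of Pi4ka on the opposite strand by 60 bases, and the strand setting of the counting is not given in the sources used here.

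Vamp8, the lysosomal R-SNARE (chr6:72385223-72390703, minus strand), had 691.3, 719.5 and 613.8 normalized counts in shRenilla FM and 850.5, 1027 and 1163 in shBruce FM. After starvation it had 529.9, 495.0 and 656.9 in shRenilla and 1516, 1098 and 659.5 in shBruce. The lines did not overlap in either medium, although in Starv the replicates numbered 3 were nearly level. The log2 difference between the lines was 0.59 ± 0.24 (SE) in FM (edgeR adjusted p = 0.316) and 0.95 ± 0.24 in Starv (edgeR adjusted p = 0.0241). Without shBruce Starv replicate 1 the difference in Starv was 0.63 (edgeR adjusted p = 0.069). The log2 fold change of Starv against FM was -0.27 ± 0.24 in shRenilla and 0.10 ± 0.24 in shBruce, neither past the threshold.

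Ykt6, the R-SNARE that can act on the autophagosome, had 2190, 2425 and 2235 normalized counts in shRenilla FM, 1915, 1868 and 2052 in shRenilla Starv, 2568, 2577 and 2464 in shBruce FM and 1784, 2411 and 1971 in shBruce Starv. Starved libraries were below fed libraries in both lines without overlap, by -0.23 ± 0.12 (SE, edgeR adjusted p = 0.206) and -0.30 ± 0.12 (edgeR adjusted p = 0.0855) on the log2 scale. Stx7, the lysosomal Qa-SNARE, ranged from 748.6 to 1020 normalized counts over the 12 libraries, with overlap between the conditions in all 4 pairs compared and log2 fold changes between -0.13 and -0.12. The 95% intervals of the Stx7 changes lay between -0.41 and 0.16.

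**Figure D2:**
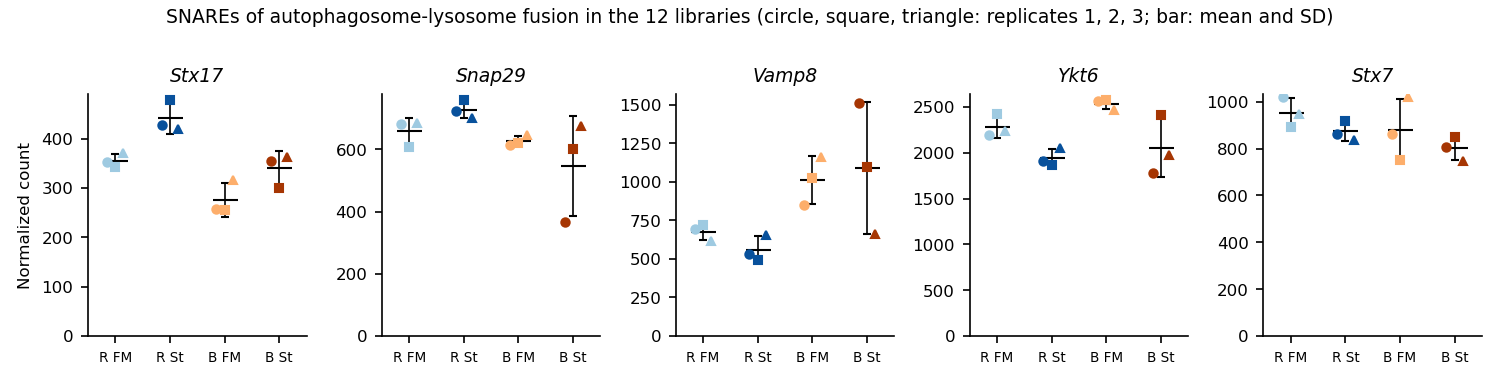
Normalized counts of Stx17, Snap29, Vamp8, Ykt6 and Stx7 in the 12 libraries, with linear axes from 0. R and B stand for shRenilla and shBruce, St for Starv, circles, squares and triangles for replicates 1, 2 and 3, and bars for the mean and SD of 3 libraries. The Stx17 libraries of shBruce lie below those of shRenilla in both media, a difference called in neither (edgeR adjusted p = 0.303 in FM and 0.0516 in Starv). With length and GC trends removed, it is 0.04 on the log2 scale in Starv. The Vamp8 libraries of shBruce Starv spread from 659.5 to 1516.

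Starvation of shRenilla MEFs raised Vamp1 and Stx5a and lowered Stx6 and Vamp3. These were 4 of 32 SNARE genes tested (12.5%, edgeR adjusted p under 0.05), where 17% of the 12154 genes tested were called. By direction, 2 rose against 9.69% of all genes and 2 fell against 7.27%, so the share called lay near the background. At an unadjusted p under 0.05 there were 8 SNARE genes against 31.6% of all genes. Over the list, the median log2 fold change was 0.06 for the SNARE genes and -0.01 for all genes, and the libraries did not overlap between the media for 18 SNARE genes (56.2%) and for 52.4% of all genes. Of the 32 tested, 12 were higher in Starv without overlap and 6 lower, where 25.9% of all genes were higher and 26.5% lower.

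In shBruce MEFs, starvation raised Stx3, Vamp5, Bnip1, Vamp1 and Stx5a and lowered Stx6. These 6 of 32 (18.8%) compare with 23% of all genes called, 12.4% higher and 10.6% lower, and 13 passed an unadjusted p under 0.05, where 36.3% of all genes did. The list had a median log2 fold change of -0.09 against 0.02 over all genes, and 13 of its genes (40.6%) did not overlap between the media, 6 of them higher in Starv, where 30.9% of all genes did not overlap and 16.2% were higher. Vamp1, Stx5a and Stx6 were called in both lines, which is 3 of the 4 called in shRenilla and 3 of the 6 called in shBruce. The share of all genes called in both lines was not counted.

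The promoters of these 3 genes are shown because they were called in the same direction in both lines. Each window runs from 250 bases before to 50 after the RefSeq start (GRCm38.p6, plus strand), and capitals mark the letters CACGTG, the E-box of the lysosomal gene network that starvation activates.
Vamp1 (chr6:125215331-125215630): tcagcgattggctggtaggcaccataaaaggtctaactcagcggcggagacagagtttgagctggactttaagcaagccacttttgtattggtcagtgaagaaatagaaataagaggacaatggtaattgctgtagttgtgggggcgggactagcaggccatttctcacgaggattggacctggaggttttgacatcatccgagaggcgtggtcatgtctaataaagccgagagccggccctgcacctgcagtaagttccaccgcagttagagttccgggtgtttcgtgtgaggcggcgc
Stx5a (chr19:8741174-8741473): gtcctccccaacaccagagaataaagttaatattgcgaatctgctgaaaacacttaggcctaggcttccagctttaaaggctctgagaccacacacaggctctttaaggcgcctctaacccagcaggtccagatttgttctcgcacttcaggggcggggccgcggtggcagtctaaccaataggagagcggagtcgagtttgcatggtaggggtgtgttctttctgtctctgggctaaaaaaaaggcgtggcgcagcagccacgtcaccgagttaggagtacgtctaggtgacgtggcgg
Stx6 (chr1:155158453-155158752): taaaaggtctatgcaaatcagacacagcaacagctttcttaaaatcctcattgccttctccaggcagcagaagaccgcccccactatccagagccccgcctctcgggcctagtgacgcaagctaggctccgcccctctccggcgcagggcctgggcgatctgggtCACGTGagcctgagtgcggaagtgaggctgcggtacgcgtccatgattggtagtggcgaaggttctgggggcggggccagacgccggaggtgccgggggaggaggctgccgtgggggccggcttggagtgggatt
Stx5a has another RefSeq start, whose window (chr19:8741553-8741852) holds none of the 4 motifs searched and is not printed. Windows of the same kind were matched for 30 SNARE genes. CACGTG, which reads alike on both strands, stood in 3 of them (10%), Stx6, Vamp4 and Bnip1, and in 8.09% of the 27025 genes with a window. On either strand, TGANTCA (AP-1) stood in 1 SNARE promoter, that of Gosr2 (3.33%, 8.97% of all genes), GTAAACA (FOXO) in 1, that of Stx2 (3.33%, 4.05% of all genes), and TGATGNAA (ATF4) in 0 (4.51% of all genes). None of these 4 motifs overlapped another in a SNARE promoter. A match describes the letters of the window and not binding.

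Vamp1, an R-SNARE of regulated exocytosis (chr6:125215551-125245964, plus strand), made the largest rise in shRenilla. It had 25.3, 35.8 and 43.0 normalized counts in FM and 96.6, 97.8 and 84.7 in Starv, and in shBruce 41.4, 49.2 and 39.7 in FM and 50.5, 79.0 and 105.0 in Starv. The media did not overlap in either line, although shBruce Starv replicate 1 lay just above the fed libraries. The log2 fold changes were 1.42 ± 0.26 (SE, edgeR adjusted p = 0.00216) and 0.88 ± 0.26 (edgeR adjusted p = 0.0268). In shBruce the call was lost without any of the 3 FM libraries (values of 0.82 to 0.98) and without Starv replicate 3 (0.61). Vamp1 has the lowest level per length of the genes tested and rested on 25 to 121 raw counts in a library.

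Stx5a encodes the Qa-SNARE of transport from the ER to and within the Golgi (chr19:8741413-8756069, plus strand). Its normalized counts rose from 1200, 1220 and 1134 in FM to 1744, 1687 and 1714 in Starv in shRenilla, and from 1155, 1258 and 1449 to 1764, 1927 and 2037 in shBruce. No starved library overlapped a fed library of its line, and the log2 fold changes were close, at 0.53 ± 0.11 (SE, edgeR adjusted p = 0.00536) and 0.57 ± 0.11 (edgeR adjusted p = 0.00289). The call in shRenilla held in all 22 refits (the alternatives other than a fold minimum) and that in shBruce in 21, the exception being a fit of only the 6 shBruce libraries (edgeR adjusted p = 0.0593). Both changes, of 1.45-fold and 1.48-fold, fell short of a 1.5-fold minimum. An exon of Mir6992 on the same strand overlaps Stx5a by 109 bases.

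Stx6, a Qc-SNARE of the trans-Golgi network and endosomes (chr1:155158715-155208256, plus strand), fell in both lines. It had 737.0, 732.7 and 737.5 normalized counts in shRenilla FM and 541.1, 559.9 and 536.9 in Starv, then 732.7, 857.4 and 720.0 in shBruce FM and 411.8, 531.3 and 517.4 in Starv. The media were well apart in every library. The log2 fold changes were -0.43 ± 0.12 (SE, edgeR adjusted p = 0.0294) and -0.66 ± 0.12 (edgeR adjusted p = 0.00236). The shRenilla call was lost when any of the 6 shRenilla libraries was left out, with values of -0.45 to -0.42.

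Vamp3 encodes cellubrevin, the R-SNARE of recycling endosomes and constitutive secretion (chr4:151047300-151057963, minus strand). It had 1672, 1595 and 1532 normalized counts in shRenilla FM against 1278, 1258 and 1224 in Starv, and 1503, 1507 and 1695 in shBruce FM against 1181, 1453 and 1199 in Starv. Starved libraries were the lower ones in both lines without overlap. The log2 fold change was -0.35 ± 0.11 (SE) in shRenilla (edgeR adjusted p = 0.0466) and -0.29 ± 0.11 in shBruce (edgeR adjusted p = 0.0756). The call in shRenilla was made in 11 of 22 refits and was lost without any of the 6 shRenilla libraries, and without shBruce FM replicate 1 or 2, with values between -0.38 and -0.32.

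Stx3, a Qa-SNARE of the plasma membrane (chr19:11775118-11819403, minus strand), had the smallest adjusted p of the SNARE genes in shBruce. Its normalized counts were 397.1, 342.3 and 255.9 in shBruce FM and 894.2, 720.2 and 564.7 in shBruce Starv, and 477.5, 437.6 and 469.6 in shRenilla FM and 650.4, 708.7 and 635.9 in shRenilla Starv. Starved libraries were higher without overlap in both lines, by 1.13 ± 0.18 (SE) on the log2 scale in shBruce (edgeR adjusted p = 8.6e-04) and 0.53 ± 0.18 in shRenilla (edgeR adjusted p = 0.0588). The call in shBruce held in all 22 refits.

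Bnip1 (chr17:26781066-26792565, plus strand) encodes SEC20, a Qb-SNARE of return transport from the Golgi to the ER. It had 161.4, 126.7 and 155.7 normalized counts in shBruce FM and 349.2, 268.9 and 236.8 in shBruce Starv, with no overlap and a log2 fold change of 0.93 ± 0.21 (SE, edgeR adjusted p = 0.00582). In shRenilla it had 98.8, 158.4 and 128.1 in FM and 168.4, 168.7 and 219.0 in Starv, again without overlap, by 0.53 ± 0.20 (edgeR adjusted p = 0.0932).

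Vamp5, a VAMP best known from muscle cells (chr6:72368794-72380468, minus strand), had 65.8, 71.2 and 72.4 normalized counts in shBruce FM and 218.0, 140.8 and 107.7 in shBruce Starv. In shRenilla it had 36.7, 55.6 and 43.0 in FM and 59.9, 61.4 and 77.1 in Starv. The starved libraries were higher in both lines without overlap, and the log2 fold change was 1.13 ± 0.25 (SE) in shBruce (edgeR adjusted p = 0.00579) and 0.55 ± 0.26 in shRenilla (edgeR adjusted p = 0.160). The calls for Bnip1 and Vamp5 in shBruce held in all 22 refits, and without shBruce Starv replicate 1 the values were 0.76 for Bnip1 and 0.81 for Vamp5.

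By site, starvation called 1 of 10 plasma membrane SNAREs higher and 1 lower in shRenilla, and 3 higher and 0 lower in shBruce, where 9.69% of all genes were higher and 7.27% lower in shRenilla and 12.4% and 10.6% in shBruce. Of the 9 ER and Golgi SNAREs, 1 was higher in shRenilla and 2 in shBruce. Of the 8 SNAREs of endosomes, lysosomes and the trans-Golgi network, 1 (Stx6) was lower in each line and 0 were higher, with medians of -0.13 and -0.11 on the log2 scale. Of the 4 placed at autophagosome–lysosome fusion (Stx17, Snap29, Vamp8 and Ykt6), 0 were called in either line by edgeR. At an unadjusted p under 0.05 there were 1 in shRenilla and 2 in shBruce (31.6% and 36.3% of all genes). Stx7 is counted here with the 8 of endosomes, lysosomes and the trans-Golgi network. Vamp3, the plasma membrane SNARE that was lower in shRenilla, also acts at recycling endosomes, as given above. In shRenilla, 30 of 32 genes had a 95% interval within a 2-fold change, and in shBruce 26 of 32.

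**Figure D3:**
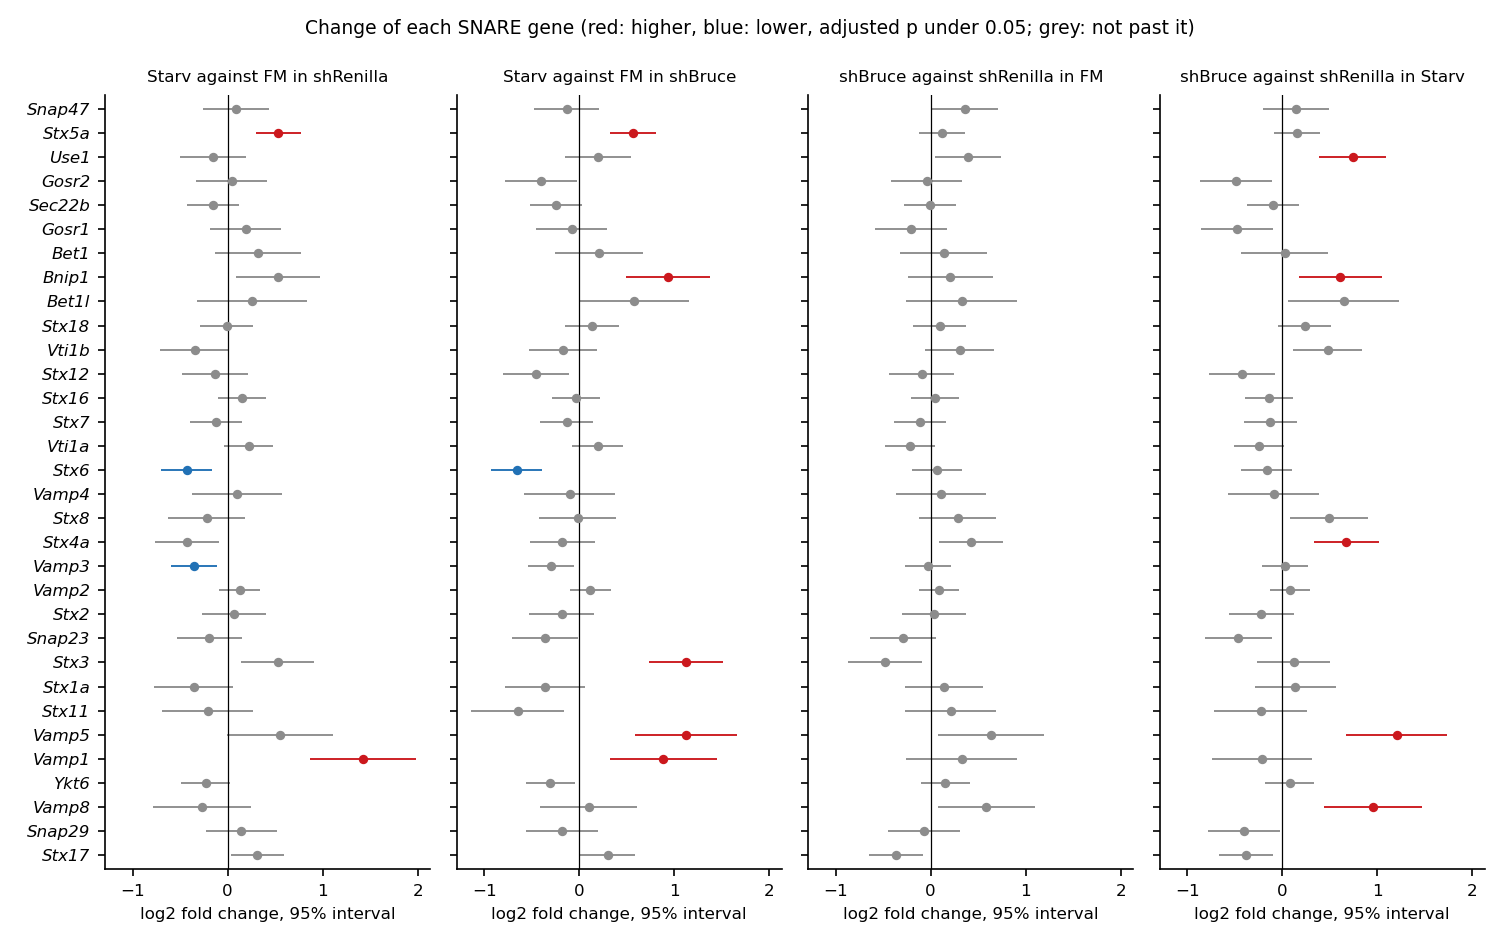
Log2 fold change of the 32 SNARE genes tested in the 4 comparisons, with 95% intervals derived from the edgeR test, in the same gene order as the plot of levels. Red marks genes called higher and blue genes called lower at an adjusted p under 0.05; calls number 4, 6, 0 and 5 from left to right.

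Between the lines in FM, 0 of 32 SNARE genes were called, as for all 12154 genes (0% called by edgeR). Birc6, the targeted gene, was not called either, at a log2 fold change of -1.75 (edgeR adjusted p = 0.0627). The lack of a call therefore does not show an unchanged level. A fit of only the FM libraries called 1 SNARE gene, Vamp8, and 5.11% of all genes. The smallest edgeR adjusted p of a SNARE gene was 0.303. DESeq2 and limma-voom also called 0 SNARE genes, with 0.625% of all genes called by DESeq2 and 0% by limma-voom. At an unadjusted p under 0.05 there were 7 SNARE genes against 14.4% of all genes. The lines did not overlap for 12 SNARE genes (37.5%), 7 of them higher in shBruce, where 33.4% of all genes did not overlap and 16.4% were higher. Vamp5 had the largest log2 difference (0.63 ± 0.26 SE), with 36.7 to 55.6 normalized counts in shRenilla and 65.8 to 72.4 in shBruce. Vamp8 followed with 0.59, Stx4a with 0.43 and Use1 with 0.39, while Stx3 was at -0.48 and Stx17 at -0.37. Over the 22 refits, the FM difference ranged from 0.19 to 0.52 for Stx4a, 0.08 to 0.50 for Use1 and -0.48 to -0.11 for Stx17. It ranged from 0.50 to 0.81 for Vamp5, 0.47 to 0.70 for Vamp8 and -0.63 to -0.32 for Stx3. The slopes against length in FM were 0.075, -0.021 and 0.117 in shRenilla and -0.087, -0.102 and -0.063 in shBruce. The part of the length trend in these differences was not tested. The 95% interval lay within a 2-fold change for 30 of 32 genes.

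In Starv, 5 of 32 SNARE genes (15.6%) were called higher in shBruce than in shRenilla MEFs and 0 lower, against 12.8% and 11.2% of all genes (23.9% in either direction). The 5 were Vamp5, Vamp8, Use1, Stx4a and Bnip1. At an unadjusted p under 0.05 there were 14 SNARE genes, where 41.2% of all genes passed. The list had a median log2 difference of 0.03, and -0.001 was the median over all genes. The lines did not overlap for 14 SNARE genes (43.8%), 7 of them higher in shBruce, where 34.9% of all genes did not overlap and 16.4% were higher.

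Vamp5 had 59.9, 61.4 and 77.1 normalized counts in shRenilla Starv and 218.0, 140.8 and 107.7 in shBruce Starv, a log2 difference of 1.21 ± 0.25 (SE, edgeR adjusted p = 0.0225). Vamp8, given above, had one of 0.95. Both genes lie on chromosome 6 with 4754 bases between them. Vamp5 and Bnip1 were also called for starvation in shBruce, a comparison that shares the shBruce Starv libraries with this one.

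Use1, a Qc-SNARE of the ER (chr8:71366848-71369732, plus strand), had 347.9, 345.3 and 434.1 normalized counts in shRenilla Starv and 740.8, 618.8 and 532.2 in shBruce Starv, without overlap. The log2 difference was 0.74 ± 0.16 (SE, edgeR adjusted p = 0.0225). Stx4a, the Qa-SNARE of constitutive and insulin-stimulated exocytosis (chr7:127824294-127849019, plus strand), had 692.7, 689.7 and 844.4 in shRenilla and 1276, 1341 and 943.7 in shBruce, without overlap. Its log2 difference was 0.68 ± 0.16 (edgeR adjusted p = 0.0225). Bnip1 had 168.4, 168.7 and 219.0 in shRenilla and 349.2, 268.9 and 236.8 in shBruce, a log2 difference of 0.61 ± 0.20 (edgeR adjusted p = 0.0447). For Use1, Stx4a and Bnip1, as for Vamp5 and Vamp8, replicate 3 was the highest library of shRenilla Starv and the lowest of shBruce Starv.

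Called genes had short or middling transcripts, of 1064 bases for Use1, 1098 for Bnip1, 1456 for Stx4a, 2076 for Vamp8 and 2619 for Vamp5. With the length and GC trends removed from each library, the log2 difference stayed at 1.15 for Vamp5 (edgeR adjusted p = 0.0366) and was 0.75 for Vamp8 (0.0601), 0.24 for Stx4a (0.141), 0.17 for Use1 (0.321) and 0.09 for Bnip1 (0.736), with adjusted p in parentheses. Vamp5 was then the only SNARE gene called between the starved lines. The part of the length trend in the fitted differences was not tested. No SNARE gene was called without shRenilla Starv replicate 1, shRenilla Starv replicate 2 or shBruce Starv replicate 2, or in a fit of the 6 starved libraries alone. Without shBruce Starv replicate 1, 2 were called, Vamp5 at 0.90 and Use1 at 0.60, and without shBruce Starv replicate 3, 15 were called. The share of all genes called moved with these counts. It was 0% when replicate 1 or 2 of shRenilla Starv was left out, 4.68%, 0.122% and 46.7% when replicate 1, 2 or 3 of shBruce Starv was, 0% in the starved libraries alone and 4.77% with the trends removed.

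**Figure D4:**
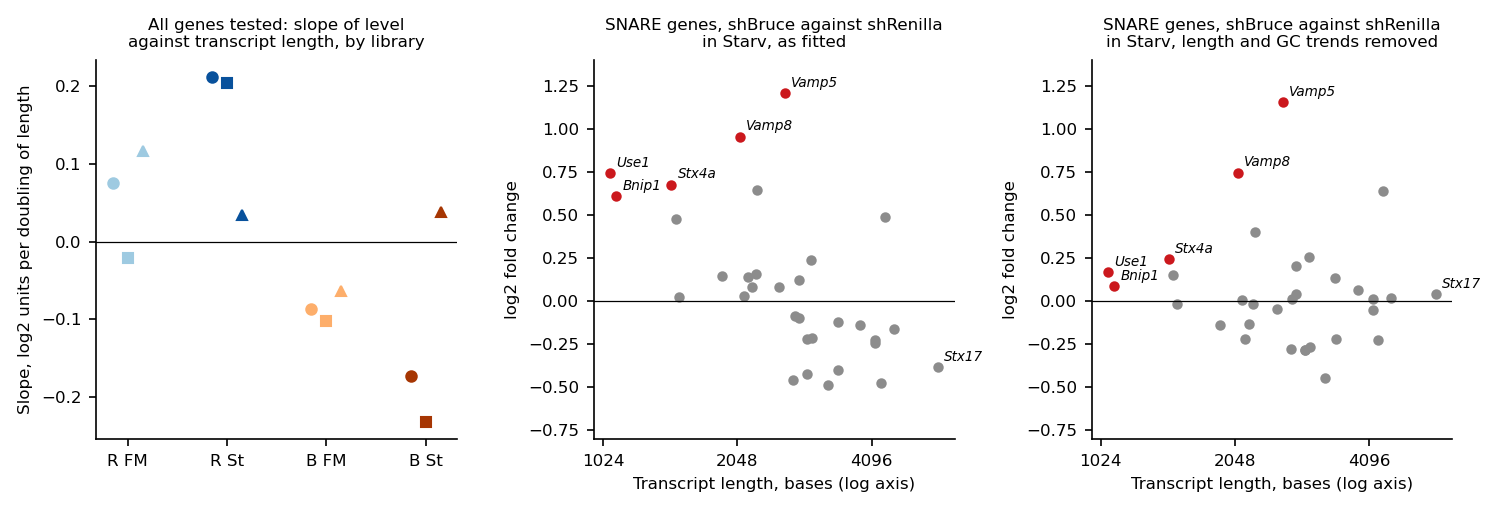
Left, slope of log2 level against log2 transcript length over all genes tested in each library, with colours and symbols as in the plots of single genes. Middle and right, log2 difference between shBruce and shRenilla MEFs in Starv for each SNARE gene against its transcript length in bases (log axis), as fitted and with length and GC trends removed; red marks the 5 genes called as fitted. Use1 and Bnip1 move from 0.74 and 0.61 to 0.17 and 0.09, and Vamp5 from 1.21 to 1.15.

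**Figure D5:**
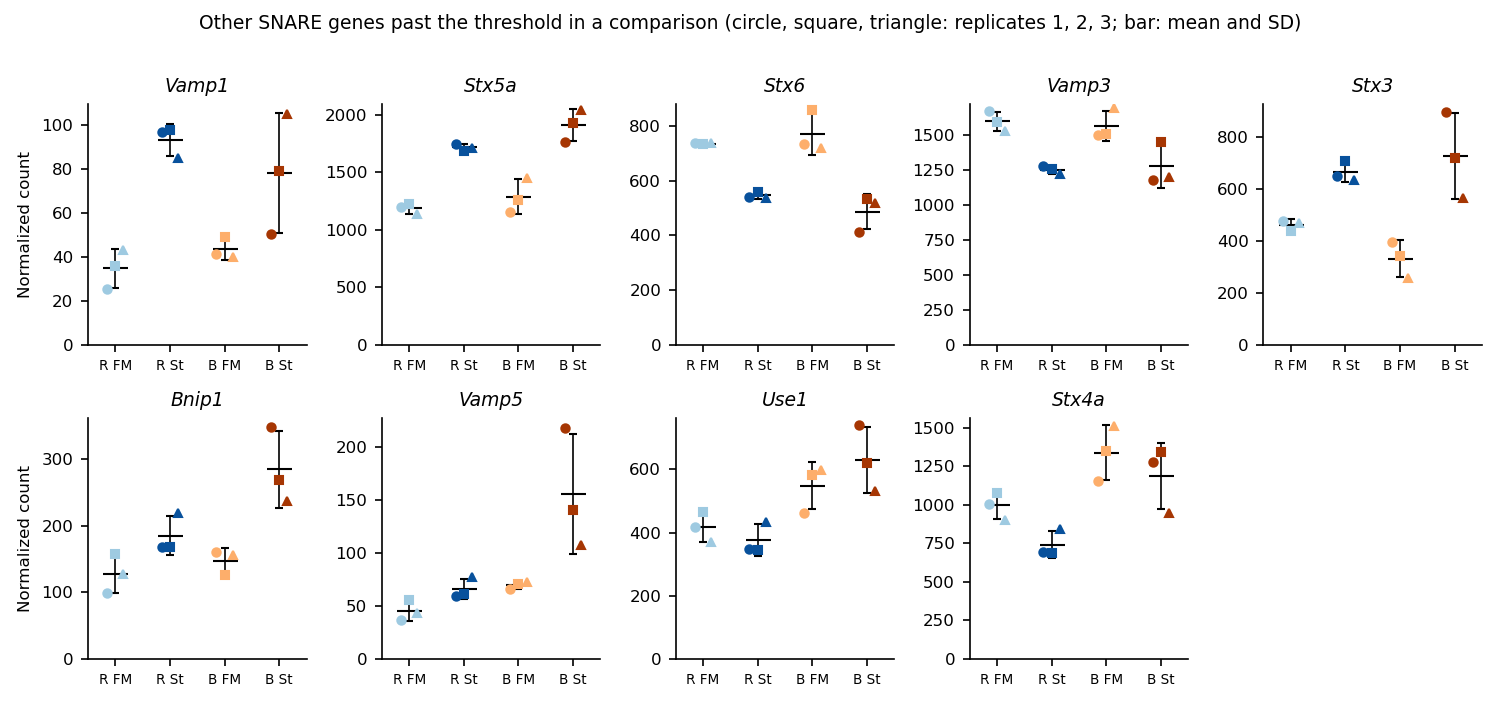
Normalized counts in the 12 libraries of the 9 other SNARE genes called in a comparison, with linear axes from 0 and symbols as in the plot of the autophagosomal SNAREs. Vamp1, Vamp3, Vamp5, Stx3, Stx5a, Stx6 and Bnip1 separate by medium in both lines, while Stx4a and Use1 do not. The means of Vamp5 and Use1 are highest in shBruce Starv, where replicate 1 lies above replicates 2 and 3. The Use1 libraries of shBruce Starv overlap those of shBruce FM.

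Whether knockdown altered the response to starvation was tested as the interaction of line and medium. It called 0 of 32 SNARE genes and 0% of all genes by edgeR, and likewise 0 SNARE genes and 0% of all genes by DESeq2 and by limma-voom. At an unadjusted p under 0.05 there was 1 SNARE gene, Stx3, whose rise was larger in shBruce by 0.60 ± 0.25 (SE) on the log2 scale (95% interval 0.05 to 1.14, edgeR adjusted p = 0.806), against 3.9% of all genes. For Vamp1 the interaction was -0.54 ± 0.37 and for Stx5a 0.04 ± 0.16. The interval lay within a 2-fold difference for 25 of 32 genes and within 1.5-fold for 10. Over all comparisons, 10 SNARE genes were called in at least 1 and 22 in none. The share of all genes called in at least 1 comparison was not counted, so these numbers have no background beside them.

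Genes that regulate SNAREs were listed by role, with 20 of 26 tested. Of the 4 genes of SNARE disassembly, 0 were called on starvation in shRenilla by edgeR, with 2 at an unadjusted p under 0.05, and 1 rose and 1 fell in shBruce. Of all genes, 17% were called and 31.6% had an unadjusted p under 0.05 in shRenilla, and 12.4% rose and 10.6% fell in shBruce. Nsf, the ATPase that takes spent SNARE bundles apart, fell in shBruce (-0.59 ± 0.12 SE, edgeR adjusted p = 0.00411) and had -0.26 ± 0.12 in shRenilla (edgeR adjusted p = 0.157). Napb, an adaptor of NSF with 25.1 to 87.3 normalized counts, rose in shBruce (1.20 ± 0.31, edgeR adjusted p = 0.0135).

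Of the 8 co-factors of exocytosis tested, 1 was called in each line on starvation and 4 between the starved lines, where 17%, 23% and 23.9% of all genes were. Stxbp4 rose on starvation in shRenilla (0.56 ± 0.16 SE, edgeR adjusted p = 0.0270) and Syt11, a synaptotagmin, in shBruce (1.34 ± 0.30, edgeR adjusted p = 0.00677). Between the starved lines, Syt11 (1.06) and Cplx2 (0.53) were higher in shBruce and Stxbp5 (-0.70) and Stxbp4 (-0.63) lower, with edgeR adjusted p of 0.0225 to 0.0325. How these 4 calls held in refits is not reported here. In this comparison the share of all genes called was 4.77% with length and GC trends removed and 0% in the starved libraries alone. Syt11 had 2915, 1421 and 920.5 normalized counts in shBruce Starv, replicate 1 being far above the others, and 798.8, 810.0 and 908.2 in shRenilla Starv. In FM, 0 of the 20 regulators differed between the lines by edgeR with 2 at an unadjusted p under 0.05 (0% and 14.4% of all genes).

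All 9 tethers that hold autophagosomes to lysosomes were tested. Atg14, which binds STX17 and SNAP29 besides its role in the VPS34 lipid kinase complex, rose from 255.5, 266.9 and 282.3 normalized counts to 847.5, 870.6 and 813.9 in shRenilla. In shBruce it rose from 254.8, 236.6 and 214.2 to 716.6, 749.0 and 805.3. The log2 fold changes were 1.65 ± 0.12 (SE, edgeR adjusted p = 1.6e-06) and 1.69 ± 0.12 (edgeR adjusted p = 1.0e-06). Of the HOPS subunits, Vps39 rose in shRenilla (0.41 ± 0.11, edgeR adjusted p = 0.0252) and Vps18 in shBruce (0.33 ± 0.11, edgeR adjusted p = 0.0438). Called tethers numbered 2 of 9 in each line, with 17% of all genes called in shRenilla and 23% in shBruce. None of the 9 was called between the lines by edgeR (0% of all genes in FM and 23.9% in Starv), with 0 in FM and 2 in Starv at an unadjusted p under 0.05 (14.4% and 41.2% of all genes).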

How the data were processed

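RNA-Seq counts of 12 MEF libraries were used. The authors made poly(A)-selected libraries, read 50 bases from 1 end, took out rRNA reads, mapped to mm10 with STAR 2.4.0d and deposited raw counts per gene from HTSeq 0.5.4p3; the annotation and strand setting are not given in the sources used here. The fit used edgeR 4.0.16 under R 4.3.3 (TMM, filterByExpr, a mean for each of 4 conditions, quasi-likelihood test, two-sided, Benjamini-Hochberg adjustment over 12154 genes, level 0.05). The SE was derived as the absolute log2 fold change divided by the square root of the F statistic of the test. Intervals are at 95% and use this SE with a t quantile. Libraries held 7717265 to 18510540 counts, and the SD gives the spread within a condition. The SE rests on a spread estimated for each gene over the 4 conditions together. It therefore does not show that the shBruce Starv replicates differed more from each other. Lengths, positions and GC content came from GENCODE M21 (GRCm38) and promoters from RefSeq; 22724 symbols matched directly and 934 by older symbols. 27 symbols turned into dates and 2 repeated symbols were left as deposited.

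The SNARE, regulator and marker lists were chosen with earlier results of these data known. Genes named in full were those called in a comparison (at most 6 in each direction), Stx17, Snap29, Vamp8, Ykt6, Stx7 and Birc6; other members of a range or count are named as such. Alternatives were other size factors, upper-quartile normalization, DESeq2 1.42.0, limma-voom (limma 3.58.1), other filters (none, or at least 10 counts in every library), only the libraries compared, the replicate number as a block, length and GC trends removed (spline with 4 degrees of freedom, 99.15% of genes), a change of at least 1.5-fold, and each library left out. The fit was tested on simulated data, with outcomes not reported here. The simulation gave no condition a wider spread than the others, so it does not cover the spread of shBruce Starv. Some regulator and overlap results are not reported here.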

Additional observations from a re-analysis of the deposited data

Results flagged for a closer look

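Gosr2, a Qb-SNARE of the Golgi, had starvation differences of opposite sign in the lines. Every shRenilla Starv library (1600, 1548 and 1536 normalized counts) was above every shRenilla FM library (1530, 1496 and 1522), a log2 fold change of 0.0431, and every shBruce Starv library (726.7, 1279 and 1323) was below every shBruce FM library (1437, 1543 and 1433), a log2 fold change of -0.40. The interaction was -0.44 ± 0.25 (SE) with an edgeR adjusted p of 0.806, so the difference between the lines did not pass the threshold. Without shBruce Starv replicate 1 the change in shBruce was -0.19. An exon of C130046K22Rik on the opposite strand overlaps Gosr2 by 149 bases.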

How the results depend on the processing

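Of 878 values of 40 named changes in refits, 774 kept their direction and side of the threshold, 66 lost a call, 22 gained one and 16 changed sign. The share of all genes called moved too and is given in parentheses. The count of SNARE genes called for starvation in shRenilla, 4 as reported (17%), was 2 with no filter on low counts (10%), 13 with only the libraries compared (41.9%), 1 for changes of at least 1.5-fold (12.6%), and 2 to 6 with a library left out (9.34 to 26.2%). In shBruce, 6 as reported (23%), it was 10 with DESeq2 (26.8%), 14 with length and GC trends removed (31.7%), 3 with only the libraries compared (8.11%), and 5 to 10 with a library left out (15.1 to 32.7%), the 10 arising without shBruce Starv replicate 2 or 3. Between the lines in FM, 0 as reported (0%), it was 1, Vamp8, with only the libraries compared (5.11%). Between the starved lines, 5 as reported (23.9%), it was 12 with DESeq2 (31.1%), 1 with trends removed (4.77%), 0 with only the libraries compared (0%), and 0 to 15 with a library left out (0 to 46.7%). The interaction count was 0 under every alternative. Where no construction shows the cause, the cause was not tested.

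The labels do not say whether libraries with the same replicate number were handled together. Of 18 correlations of same-numbered libraries, 5 were over 0.1 (range -0.46 to 0.35). With 3 libraries in a condition, these correlations cannot settle whether the libraries were paired. With the replicate block, 4 SNARE genes were called for starvation in shRenilla (14.6% of all genes), 6 in shBruce (20.2%) and 4 between the starved lines (15.9%), and with the block and trends removed 10 in shBruce (29%) and 0 between the starved lines (0.00823%).

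Signs changed with trends removed, without and with the block, for Snap29 (0.0383 and 0.0357) and Stx7 (0.0326 and 0.0335) between the lines in FM, and for Stx17 (0.0392 and 0.0406), Ykt6 (-0.0467 and -0.0497) and Stx7 (0.13 and 0.13) between the starved lines. With a library left out, the change between the starved lines ranged from -0.0525 to 0.16 for Ykt6, and that on starvation from -0.26 to 0.13 for Birc6 in shRenilla, from -0.36 to 0.0126 for Snap29 in shBruce and from -0.22 to 0.36 for Vamp8 in shBruce. Depth limited Snap25, with at most 3 counts, and Vamp1, with as few as 25.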
